A study of Mus musculus with 14 samples.

Results

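The proteasome genes measured in this study of mouse liver were taken as the genes whose platform symbol begins with Psma, Psmb, Psmc, Psmd, Psme, Psmf or Psmg. The rule found 49 genes on 103 probe sets, among 18193 genes that had a probe set of their own. A probe set is the group of short array probes that measures 1 transcript, and each gene was read by its brightest probe set, the one with the highest mean log2 intensity over the 14 arrays. Of the 49 genes, 48 passed the filter on low values and entered the test, among 12085 genes tested in all. Apart from the promoter matches, no count below speaks for the gene that did not pass. That gene was Psmb11, the thymus-specific catalytic subunit, which read 2.16 to 36.2 on the 14 arrays. Psme2, the partner of Psme1, was left out because its probe set also names a second gene. The symbol rule also took in Psmc3ip and Psme3ip1, which encode binding proteins and no part of the proteasome, so that 47 members are proteasome subunits, regulators or assembly factors.

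The proteasome is the large protease that degrades proteins marked with ubiquitin, including misfolded proteins drawn out of the endoplasmic reticulum (ER). Its 20S core is a barrel in which rings of alpha subunits gate the entry and rings of beta subunits hold the catalytic sites, and the 19S cap recognises ubiquitin chains, removes them and threads the substrate into the core with a ring of ATPases. Interferons replace the constitutive catalytic subunits with the alternative subunits Psmb8, Psmb9 and Psmb10 (the immunoproteasome), other activators can cap the core in place of 19S, and dedicated chaperones help to assemble the particle.

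Livers of 4 groups were compared, 1 array per sample. WT mice were given 1 mg/kg tunicamycin, an inhibitor of N-glycosylation that causes ER stress, for 6 h (n = 4) or 0.3% DMSO as the control (n = 3, no time given). Mice labelled lsPERK, which the design text gives as the knock-out, were treated likewise (n = 4 with tunicamycin, n = 3 controls). PERK, encoded by Eif2ak3, is the ER kinase that phosphorylates eIF2 during ER stress. The sources used here do not give the allele, the cells in which it was deleted, the strain, the age or the sex. The labels do not say that replicates are separate animals, so p-values measure the spread between these samples.

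The deposited intensity had array medians between 34.6 and 53.5, the values were quantile normalised on the log2 scale, and the normalised intensity is given below unless a difference on the log2 scale is named. In WT liver Eif2ak3 read 240.1, 443 and 362 in the controls and 1767, 2419.7, 1725 and 1755 after tunicamycin, and in lsPERK liver 157, 137 and 127 and 316, 302, 239 and 275. It was lower in lsPERK liver after tunicamycin (log2 -2.75, adjusted p = 1.47e-07). Its difference between the controls, log2 -1.27, had an adjusted p of 0.309. Whether this probe set lies in the deleted part of the gene is not given in the sources used here. The 6 hepatocyte markers measured summed to between 89680 and 97497 on every array. None was called in WT liver. Ass1 was called lower in lsPERK liver after tunicamycin (log2 -1.25, adjusted p = 0.00457) and in the difference of responses (log2 -1.46, adjusted p = 0.0128). Its probe set was dim, with group means of 75.5 and 87.0 in WT control and tunicamycin and 136 and 57.0 in lsPERK control and tunicamycin. The lowest group mean among the other markers was 14674, so the Ass1 calls rest on low intensity and Ass1 adds little to the sum. Cyp2e1 was higher in lsPERK liver under tunicamycin (log2 0.16, adjusted p = 0.0349). Of the arrays, 6 had high Xist signal, 1 in each WT group and 2 in each lsPERK group.

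Tunicamycin moved proteasome genes in both directions in WT liver. Lowest among the proteasome parts were the immunoproteasome subunits Psmb8, Psmb9 and Psmb10 and the activator subunit Psme1. Highest was the ATPase subunit Psmc4 by its brightest probe set, a rise that its second probe set did not show. Of the 48 members tested, 6 were called higher and 17 lower in WT liver (limma, Benjamini-Hochberg adjusted p under 0.05 over 12085 genes). That is 23 of 48, against 46.7% of all genes tested, of which 20.7% were higher and 26% lower, a share close to that of the members (47.9%). In lsPERK liver 1 member was called higher and 4 lower, against 15.7% of all genes (8.42% higher and 7.27% lower). With the replicate number as a block the lsPERK counts were 0 and 3. The members' median difference was log2 -0.19 in WT liver, where that of all genes was -0.13, and log2 -0.00003 in lsPERK liver, where that of all genes was -0.02. All tunicamycin arrays lay above all control arrays for 7 members and below them for 21 in WT liver, where 21.6% and 26.6% of all genes did so. In lsPERK liver the counts were 4 and 8, where 13.4% and 13.8% of all genes did so.

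The direction of the smaller changes in WT liver rests on how the arrays were put on 1 scale. On the deposited values the median of all genes was log2 0.30 and 3632 genes were called higher and 705 lower, against 2496 and 3146 after quantile normalisation. Arrays centred on their medians gave a median of 0.01, with 3014 higher and 1953 lower. With the values left as deposited, 13 members were called higher and 1 lower, and 12 of the 17 members called lower after quantile normalisation had a positive difference there, none of them called. Relative to the median of all genes the members' median stayed lower under each of these scalings, by 0.06, 0.09 and 0.09 on the log2 scale. Psmb3, Psmb8, Psmb9, Psmb10 and Psme1 were called lower with median centring too, and Psmb10 also on the deposited values. In the text that follows, a gene that rose or fell did so on the quantile-normalised scale.

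**Figure D1:**
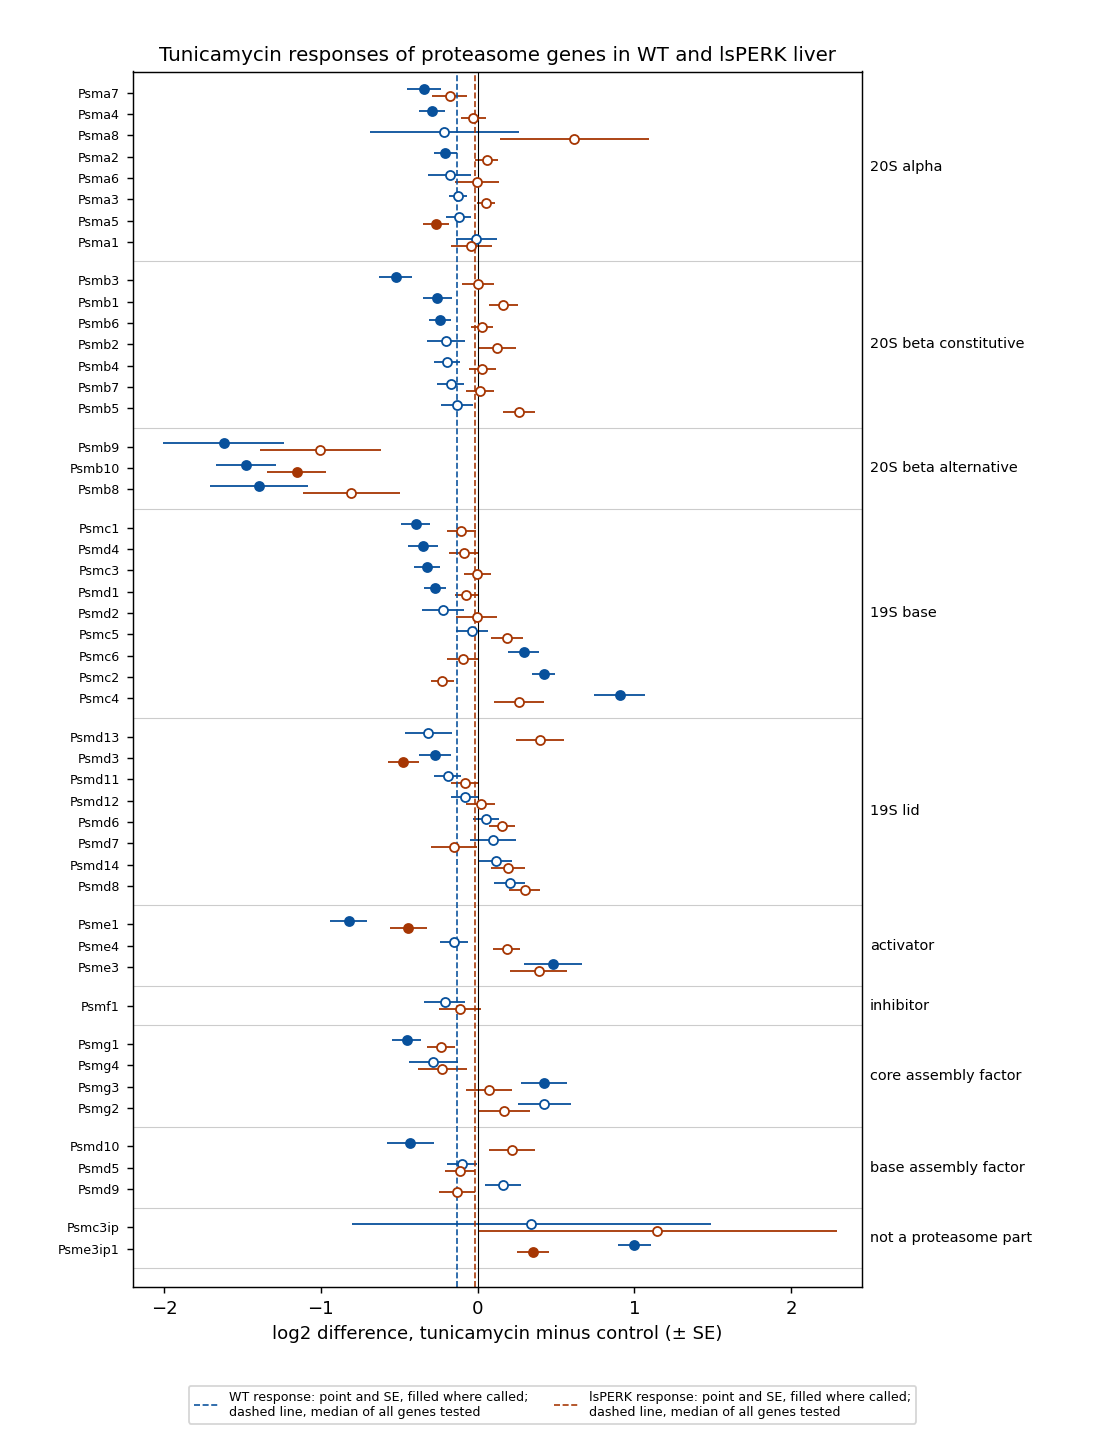
Tunicamycin minus control on the quantile-normalised log2 scale (± SE) for the 48 members tested, by part of the proteasome, in WT (blue, 4 against 3 arrays) and lsPERK liver (brown, 4 against 3 arrays); filled points were called and dashed lines mark the median of all genes tested. Psmb8, Psmb9 and Psmb10 lie furthest to the left in WT liver, and most other parts lie near the dashed lines; on the deposited values 12 of the 17 members called lower in WT liver turn positive.

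The alternative catalytic subunits fell together in WT liver after tunicamycin. These are Psmb9, Psmb10 and Psmb8, which interferon-gamma induces and which take the places of Psmb6, Psmb7 and Psmb5 in the immunoproteasome. All 3 were called lower in WT liver, at a median of log2 -1.48, whereas 1 of the 3 was called lower in lsPERK liver, at a median of log2 -1.004.

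Psmb9 read 1546, 551 and 783 on the 3 WT control arrays and 254, 408, 323 and 195 on the 4 WT tunicamycin arrays. Every tunicamycin array lay below every control array, a 3.07-fold drop (log2 -1.62 ± 0.39 SE, adjusted p = 0.00335). In lsPERK liver it read 1663, 607 and 631 in the controls and 387, 362, 554 and 437 after tunicamycin. The groups did not overlap there either, but the difference did not pass the test (log2 -1.004 ± 0.39 SE, adjusted p = 0.0997).

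Psmb10 read 2361, 1414 and 1778 in WT control and 593, 734, 643 and 642 in WT tunicamycin, a 2.78-fold drop (log2 -1.48 ± 0.19 SE, adjusted p = 2.53e-05). It read 2505, 1749 and 1569 in lsPERK control and 767, 724, 959 and 1000.1 in lsPERK tunicamycin, and fell there too (log2 -1.15 ± 0.19 SE, adjusted p = 0.000985). The tunicamycin arrays lay below the controls in both genotypes, and Psmb10 was the one catalytic subunit called in both.

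Psmb8 read 2087, 836 and 1099.7 in WT control and 370.2, 711, 434 and 439 in WT tunicamycin, a 2.63-fold drop without overlap (log2 -1.39 ± 0.31 SE, adjusted p = 0.00216). It read 2040.2, 1148 and 985 in lsPERK control and 816, 613, 822 and 798 in lsPERK tunicamycin, again without overlap, and did not pass the test (log2 -0.80 ± 0.31 SE, adjusted p = 0.102). The control arrays numbered 1 were the highest of each genotype for all 3 genes. Without both of them the WT differences were log2 -1.22 for Psmb9, -1.28 for Psmb10 and -1.02 for Psmb8, with adjusted p-values of 0.00336, 5.9e-05 and 0.00407. The lsPERK differences were then -0.53, -0.95 and -0.49, with adjusted p-values of 0.224, 0.00196 and 0.195. On the 8 arrays of low Xist signal, of which 1 is an lsPERK control, the lsPERK difference of Psmb10 was -0.68 with an adjusted p of 0.054. On the deposited values the WT differences of Psmb9 and Psmb8 were -1.07 and -0.85, with adjusted p-values of 0.0504 and 0.0699.

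The drop was not shown to differ between the genotypes for any of the 3. The lsPERK response minus the WT response was log2 0.62 ± 0.54 SE, adjusted p = 0.488 for Psmb9, log2 0.32 ± 0.27 SE, adjusted p = 0.46 for Psmb10 and log2 0.59 ± 0.44 SE, adjusted p = 0.4 for Psmb8. After tunicamycin Psmb8 was 1.60-fold higher in lsPERK than in WT liver with overlapping arrays (log2 0.68 ± 0.29 SE, adjusted p = 0.0853). Without WT tunicamycin replicate 2, the highest of its group, the difference was log2 0.88 with an adjusted p of 0.0325.

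The constitutive subunits of the same catalytic sites had smaller differences. Psmb6 (caspase-like site) read 4368, 4241 and 4337 in WT control and 3488, 3483, 3735 and 3928 in WT tunicamycin, and fell slightly without overlap (log2 -0.24 ± 0.07 SE, adjusted p = 0.0112). As deposited its difference was log2 0.11. Psmb7 (trypsin-like site) read 7633, 8323 and 8466 in WT control and 6796, 6926, 7802 and 7389 in WT tunicamycin, with overlap (log2 -0.17 ± 0.09 SE, adjusted p = 0.124). Psmb5 (chymotrypsin-like site) read 3565, 3378 and 3718 in WT control and 3319, 3188, 2985 and 3491 in WT tunicamycin, also with overlap (log2 -0.13 ± 0.10 SE, adjusted p = 0.302). In lsPERK liver Psmb5 read 3248, 2625 and 3457 in the controls and 3496, 4083, 3493 and 3787 after tunicamycin, where all tunicamycin arrays were higher but the test was not passed (log2 0.26 ± 0.10 SE, adjusted p = 0.0948). Psmb6 spanned 3839 to 4201 in lsPERK control and 3999 to 4407 in lsPERK tunicamycin, and Psmb7 6519 to 8661 and 7297 to 7892.

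**Figure D2:**
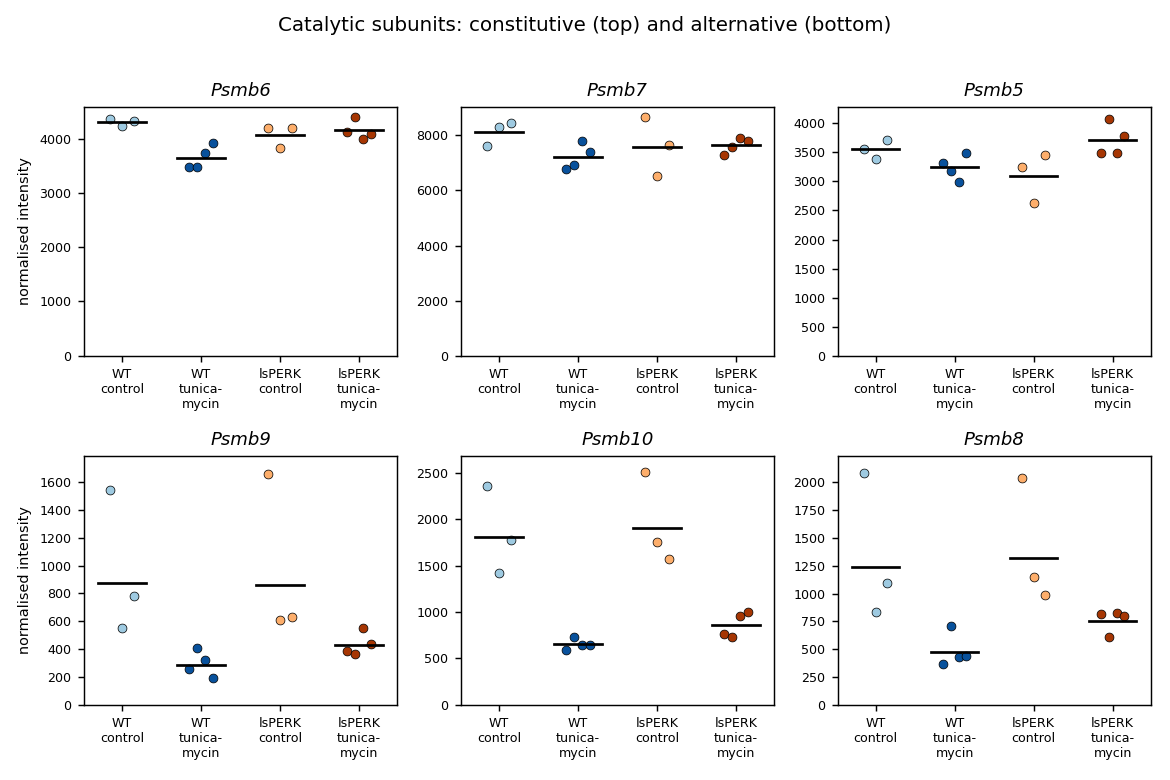
Normalised intensity of the constitutive catalytic subunits (top row) and of the alternative subunit of the same site (bottom row) on each array, with the group's geometric mean as a bar. Psmb8, Psmb9 and Psmb10 were lower on every WT tunicamycin array than on any WT control array, and in each genotype 1 control array stood high for all 3.

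Psmb8 and Psmb9 lie in the major histocompatibility complex on chromosome 17, in the order Psmb9, Tap1, Psmb8, Tap2, and Tap1 and Tap2 encode the transporter that carries the peptides into the ER. The stretch between the RefSeq starts of Psmb9 and Tap1 (GRCm38.p6, chr17:34187331-34187555, minus strand, 225 bases) is shown because both genes start at its ends. Psmb9 fell in WT liver, Tap1 did not pass the test there (log2 -0.24 ± 0.27 SE, adjusted p = 0.504), and the difference between them was not tested. The 150 bases before the start of Psmb8 (chr17:34198045-34198194, plus strand) hold 1 match to the interferon-gamma activated site TTCNNNGAA, in capitals. The 120 bases around the start of Psme1 (chr14:55578394-55578513, plus strand, 100 before and 20 after the start) hold 1 match on the minus strand to the core of the interferon-stimulated response element, in capitals, here taken as 2 copies of GAAA with 2 bases between them. Both genes fell in WT liver, as did Psmb9 and Psmb10, whose promoter windows (250 bases before to 50 after the start) matched neither motif. Over all genes with a window, 9.55% held the site and 3.99% the core. Of the other members with a match, Psmb3, Psmd4 and Psmg1 fell in WT liver, and Psmd2, Psmd9 and Psmg4 were not called there. Whether the motifs bear on the fall was not tested.
Psmb9-Tap1: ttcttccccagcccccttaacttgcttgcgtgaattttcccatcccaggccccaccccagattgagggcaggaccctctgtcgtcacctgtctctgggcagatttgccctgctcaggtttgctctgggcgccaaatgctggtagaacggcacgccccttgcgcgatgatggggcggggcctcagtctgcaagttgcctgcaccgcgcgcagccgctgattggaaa
Psmb8: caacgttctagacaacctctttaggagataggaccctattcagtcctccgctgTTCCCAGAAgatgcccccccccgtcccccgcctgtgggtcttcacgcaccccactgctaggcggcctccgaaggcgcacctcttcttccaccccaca
Psme1: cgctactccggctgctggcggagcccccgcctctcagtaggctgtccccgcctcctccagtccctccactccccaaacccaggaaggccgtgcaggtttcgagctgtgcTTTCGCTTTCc

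Other interferon-induced and antigen-presentation genes were also lower. Of 10 such genes tested of 12 listed, 7 were called lower and none higher in WT liver, at a median of log2 -1.23, and 4 lower and none higher in lsPERK liver, at a median of log2 -0.80. Of all genes 26% and 7.27% were called lower. Irf1, an interferon-induced transcription factor, fell in WT liver (log2 -1.27, adjusted p = 0.000448) and in lsPERK liver (log2 -0.72, adjusted p = 0.0496). Tapbp, which loads peptide onto class I molecules, fell in both as well (log2 -1.19, adjusted p = 2.95e-06, and log2 -1.03, adjusted p = 5.91e-05). So did Ifit1 (log2 -2.12, adjusted p = 6.42e-05, and log2 -2.03, adjusted p = 0.000466) and Irf7 (log2 -1.94, adjusted p = 7.88e-05, and log2 -1.32, adjusted p = 0.00627). B2m, the light chain of class I, had differences of -0.05 and -0.04 with adjusted p-values of 0.607 and 0.74. None of the 10 was called between the genotypes, under control or under tunicamycin, or in the difference of responses.

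Markers of Kupffer cells, the liver's macrophages, were high on the same control arrays as these genes. All 8 markers had negative differences in both genotypes (median log2 -0.70 in WT and -0.56 in lsPERK liver). Cd5l was called in WT liver (log2 -1.10, adjusted p = 0.0202), and none in lsPERK liver. Their summed intensity was 20362, 7522 and 11993 on the WT control arrays and 4369, 12961, 5837 and 7083 on the WT tunicamycin arrays. It was 19117, 14629 and 6768 in lsPERK control and 10643, 9596, 6939 and 7238 in lsPERK tunicamycin. The sum was highest on the control arrays numbered 1, the arrays on which Psmb8, Psmb9 and Psmb10 were highest. In every group the arrays of high Xist signal had the highest Kupffer sums. Psmb8, Psmb9 and Psmb10 peaked on an array of high Xist signal in both WT groups and in lsPERK control, but not in lsPERK tunicamycin. WT tunicamycin replicate 2 had a higher Kupffer sum than WT control replicates 2 and 3, and its Psmb8, Psmb9 and Psmb10 lay below theirs. Within its own group that array had the highest Kupffer sum and the highest Psmb8, Psmb9 and Psmb10 (711, 408 and 734). The part of Kupffer cells in the result was not tested. In these bulk samples, fewer cells of a type and less RNA per cell cannot be told apart. The 3 B cell markers measured summed to 94.0 to 160 in the WT controls and 55.3 to 77.8 after tunicamycin, and in lsPERK liver to 82.0 to 159 and 70.4 to 90.8. The 5 T or NK cell markers spanned 90.1 to 282 and the 2 neutrophil markers 30.7 to 456 over the 14 arrays. No marker of these 3 cell types was called, and the part of these cells was not tested either. Of 6 endothelial and 5 stellate cell markers 2 each were called lower in WT liver, where 26% of all genes were, and none in lsPERK liver. Of 3 cholangiocyte markers tested 1 was called higher in lsPERK liver, where 8.42% of all genes were. Of the stellate cell markers, 1 was called higher between the genotypes under tunicamycin and 1 in the difference of responses, where 18.5% and 10.2% of all genes were.

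**Figure D3:**
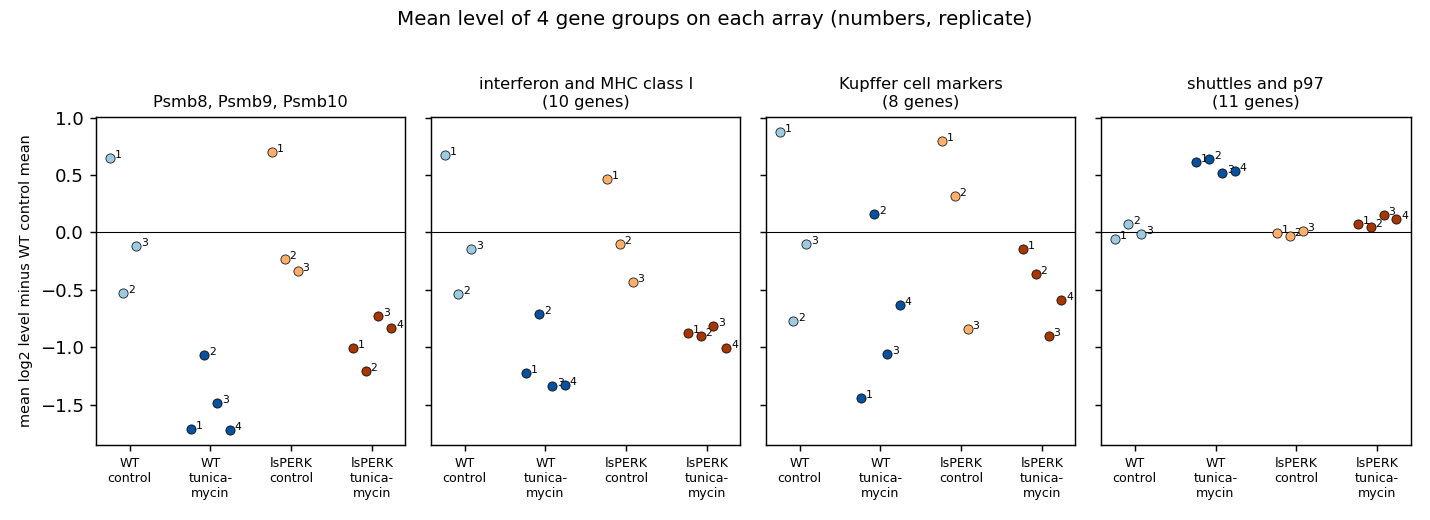
Mean log2 level of 4 gene groups on each array relative to the WT control mean, with replicate numbers beside the points. Psmb8, Psmb9 and Psmb10 and the interferon and class I genes were lower on all tunicamycin arrays than on any control array of the same genotype, Kupffer markers overlapped between the groups, and ubiquitin shuttles and p97 cofactors were high on the 4 WT tunicamycin arrays.

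For the standard 20S core 15 subunits were tested, among them Psma8, the dim testis form of Psma7. Of these, 6 were called lower and none higher in WT liver, where 26% and 20.7% of all genes were. Their median was log2 -0.20, and that of all genes -0.13. On the deposited values the difference turned positive for 5 of the 6. In lsPERK liver 1 was called lower and none higher, at a median of log2 0.03, where 7.27% and 8.42% of all genes were, at a median of -0.02, so that the core lay near the background there. In the alpha ring, which gates the core, Psma7 (log2 -0.34, adjusted p = 0.0202), Psma4 (log2 -0.29, adjusted p = 0.00964) and Psma2 (log2 -0.21, adjusted p = 0.0323) fell in WT liver. Their differences on the deposited values were 0.08, 0.0248 and 0.20. Psma4 read 4896, 5065 and 5024 in WT control and 3709, 3997, 4217 and 4425 in WT tunicamycin, and the arrays did not overlap. The Psma2 call was lost when any 1 of 5 arrays was left out, with the highest adjusted p, 0.106, without WT control replicate 3. The Psma7 call was lost when any 1 of 3 arrays was left out, the highest adjusted p being 0.0974 without WT control replicate 1. A second probe set of Psma7 read 2989, 2633 and 3211 in WT control and 1865, 2079, 2110 and 2188 in WT tunicamycin, all lower. In lsPERK liver its arrays overlapped.

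Psma5 was the alpha subunit called lower in lsPERK liver (log2 -0.26 ± 0.08 SE, adjusted p = 0.0404). It read 5058, 4278 and 4444 in lsPERK control and 3836, 3443, 4183 and 3829 in lsPERK tunicamycin, without overlap. In WT liver it read 4638, 5214 and 4739.8 and 4411, 4462, 4530.1 and 4459, also without overlap but without passing the test (log2 -0.12, adjusted p = 0.242). The lsPERK call was lost when any 1 of 9 arrays was left out, with the highest adjusted p, 0.158, without lsPERK control replicate 1, and with the replicate block (log2 -0.27, adjusted p = 0.0845). A second probe set fell in WT liver (log2 -0.38, adjusted p = 0.0211 over probe sets). By their brightest probe sets Psma1, Psma3 and Psma6 were not called in any comparison, with WT differences of -0.01, -0.13 and -0.18. A second probe set of Psma6 fell in WT liver (log2 -0.26, adjusted p = 0.02 over probe sets), and a dimmer one of Psma1 fell in lsPERK liver (log2 -1.17, adjusted p = 0.0129). Psma8, the testis form of Psma7, was above the pooled median of all intensities on 9 of 14 arrays, read between 13.1 and 80.7, and was not called.

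Among the constitutive beta subunits Psmb3, a structural subunit, fell most in WT liver. It read 3990.5, 3667 and 3773 in WT control and 2876, 2174, 2755 and 2877 in WT tunicamycin, and all tunicamycin arrays were lower (log2 -0.52 ± 0.10 SE, adjusted p = 0.000998). Its other kept probe set gave log2 -0.43, and on the deposited values the difference was -0.10 with an adjusted p of 0.642. In lsPERK liver it read 2997, 2911 and 3546 in the controls and 3182, 2943, 3263 and 3198 after tunicamycin, with overlap (log2 0.00, adjusted p = 0.995). The responses differed (log2 0.52 ± 0.15 SE, adjusted p = 0.0236), a call that was not made on the deposited values or with median centring. Without WT control replicate 1 or lsPERK control replicate 1 or 2 that difference had adjusted p-values of 0.0559, 0.0503 and 0.0614.

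Psmb1, another structural subunit, read 4189, 4176 and 4289 in WT control and 3351, 3454, 3324 and 4039 in WT tunicamycin, and fell (log2 -0.26, adjusted p = 0.0318). As deposited its difference was 0.11. It read 4505, 3639 and 3610.1 in lsPERK control and 4427, 4201, 4343 and 4502 in lsPERK tunicamycin, with overlap (log2 0.16, adjusted p = 0.26), and the responses differed (log2 0.42 ± 0.13 SE, adjusted p = 0.0334). The WT call was lost when any 1 of 6 arrays was left out and the difference call when any 1 of 11 arrays was left out, with highest adjusted p-values of 0.0847 and 0.0829. On the deposited values and with median centring neither call was made. Psmb2 and Psmb4 were not called, with WT differences of -0.20 and -0.20.

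The 19S base, which holds the ATPase ring and the large scaffold subunits, changed in both directions in WT liver. Of 9 subunits 3 were called higher and 4 lower there, at a median of log2 -0.22, where 20.7% and 26% of all genes were. None was called in lsPERK liver, at a median of log2 -0.07, where 15.7% of all genes were. The 6 ATPases form 1 ring, yet Psmc2, Psmc4 and Psmc6 rose and Psmc1 and Psmc3 fell in WT liver. Psmc5 did not pass the test (log2 -0.04, adjusted p = 0.803). Psmc1 and Psmc3 had differences on the deposited values of 0.09 and 0.11, whereas the 3 ATPases that rose were called higher under each of these scalings.

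Psmc4 read 1868, 2195 and 1629 in WT control and 3956, 3278, 3881 and 3073 in WT tunicamycin, a 1.87-fold rise without overlap (log2 0.90 ± 0.16 SE, adjusted p = 0.000384). In lsPERK liver it read 3041, 2171 and 2179 in the controls and 3288, 2600.4, 3454 and 2452 after tunicamycin, with overlap (log2 0.26, adjusted p = 0.317). The second probe set of Psmc4 did not show the rise, with log2 -0.02 in WT liver and 0.19 in lsPERK liver. The 2 probe sets of this gene disagree, and the difference between the genotypes' responses did not pass the test (log2 -0.64, adjusted p = 0.0632).

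Psmc2 rose in WT liver, and its response differed between the genotypes. It read 3905, 3672 and 3498 in WT control and 4711, 5421, 5024 and 4633 in WT tunicamycin, all higher (log2 0.42 ± 0.07 SE, adjusted p = 0.000346). It read 4029.6, 3674 and 3669.5 in lsPERK control and 3231, 3239.9, 3311 and 3186 in lsPERK tunicamycin, all lower, a decrease that did not pass the test (log2 -0.22, adjusted p = 0.0547). The difference of responses passed (log2 -0.65 ± 0.10 SE, adjusted p = 0.000985), and after tunicamycin Psmc2 was 1.52-fold lower in lsPERK than in WT liver (log2 -0.61, adjusted p = 1.56e-05). A second probe set gave log2 0.24 in WT liver (adjusted p = 0.0609 over probe sets) and -0.48 between the genotypes under tunicamycin (adjusted p = 0.000985). With the mean of its 3 probe sets the WT difference was 0.14 and that under tunicamycin -0.34, with adjusted p-values of 0.515 and 0.107. The third probe set in that mean was dim, at 32.0 over the 14 arrays, below the pooled median of 41.5. The other probe sets read 3886 and 3777. On the 8 arrays of low Xist signal, of which 1 is an lsPERK control, the WT difference was 0.17 and the difference of responses -0.47, with adjusted p-values of 0.209 and 0.119.

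Psmc6 read 3036, 2839.7 and 3143 in WT control and 3581, 3947, 3423 and 3787 in WT tunicamycin, all higher (log2 0.29 ± 0.10 SE, adjusted p = 0.025). It read 3629, 2660.5 and 3084 in lsPERK control and 2779.8, 3057, 2787 and 2992 in lsPERK tunicamycin, with overlap, and under tunicamycin it was lower in lsPERK liver (log2 -0.34, adjusted p = 0.00937). Its WT call was lost when any 1 of 4 arrays was left out, with the highest adjusted p, 0.0907, without WT control replicate 2, and with the 3′ to 5′ signal ratio as a covariate (log2 0.21, adjusted p = 0.102). Of its other probe sets, 1 rose in WT liver (log2 0.47, adjusted p = 0.0352 over probe sets) and 1 did not pass the test (log2 0.08, adjusted p = 0.641). Under tunicamycin neither passed between the genotypes (log2 -0.42 and -0.19, adjusted p = 0.0521 and 0.216). Psmc1 read 2194, 2300.0 and 2462 in WT control and 1764, 1749, 1829.6 and 1699 in WT tunicamycin, all lower (log2 -0.40, adjusted p = 0.00281). Psmc3 read 3168, 2714 and 3057 and 2419, 2411, 2395 and 2287, also all lower (log2 -0.32, adjusted p = 0.00645), and was higher in lsPERK than in WT liver under tunicamycin (log2 0.26, adjusted p = 0.0207). The loss of WT tunicamycin replicate 4 or lsPERK tunicamycin replicate 2 or 4 brought that adjusted p to 0.0538, 0.0592 and 0.0578.

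**Figure D4:**
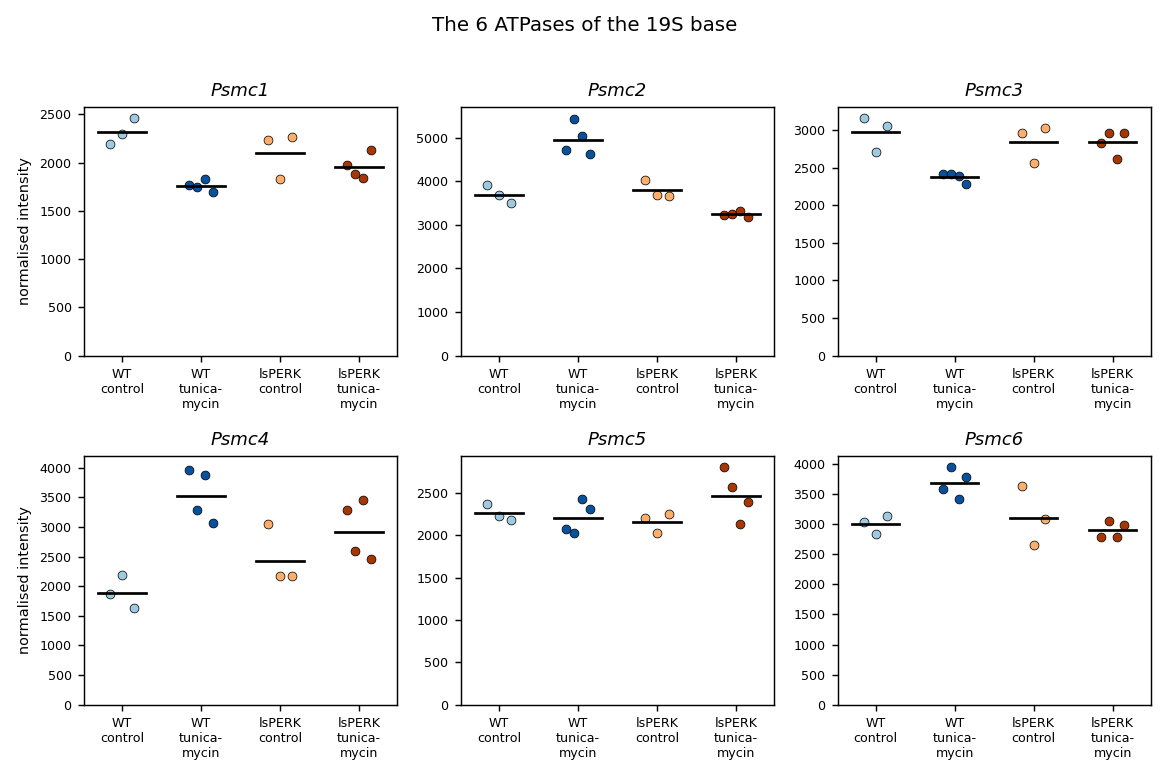
Normalised intensity of the 6 ATPases of the 19S base on each array, with the group's geometric mean as a bar. In WT liver Psmc2, Psmc4 and Psmc6 were higher and Psmc1 and Psmc3 lower on every tunicamycin array than on any control array. For Psmc1 and Psmc3 this direction turned on the deposited values, and a second probe set of Psmc4 did not show its rise.

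Of the other base subunits, Psmd4, the ubiquitin receptor also called Rpn10, fell in WT liver (log2 -0.35, adjusted p = 0.00896), as did Psmd1, a scaffold subunit (log2 -0.27, adjusted p = 0.00716). Their differences on the deposited values were 0.10 and 0.19. The Psmd4 call was lost without WT control replicate 3 (log2 -0.28, adjusted p = 0.0533). A second probe set of Psmd4 read 2590, 2678 and 2918 in WT control and 2165, 2287, 2409 and 2714 in WT tunicamycin, with overlap. Psmd2, the other scaffold, did not pass the test (log2 -0.22, adjusted p = 0.195).

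The 19S lid holds the deubiquitinase Psmd14 (Rpn11). Of its 8 subunits 1 was called lower in each genotype and none higher, at medians of log2 -0.01 in WT and 0.09 in lsPERK liver, where 26% and 7.27% of all genes were lower. The one called was Psmd3 in both. It read 1167, 1055 and 1029 in WT control and 1022, 819, 865 and 887 in WT tunicamycin (log2 -0.27, adjusted p = 0.0402). It read 1039.7, 1038 and 1138 in lsPERK control and 706, 784, 837 and 766 in lsPERK tunicamycin (log2 -0.47, adjusted p = 0.00615). All tunicamycin arrays were lower than the controls in both genotypes. The WT call was lost when any 1 of 8 arrays was left out, with the highest adjusted p, 0.15, without WT control replicate 1, and its difference on the deposited values was 0.28. Psmd14 read 2235 to 2439.6 in WT control and 2409.5 to 2752 in WT tunicamycin, which did not pass the test (log2 0.11, adjusted p = 0.415).

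Psmd13 differed between the genotypes. It read 871, 824 and 795 in WT control and 678, 747, 793 and 493 in WT tunicamycin, all lower (log2 -0.31, adjusted p = 0.106). It read 892, 775 and 666 in lsPERK control and 962, 1132, 997 and 991 in lsPERK tunicamycin, all higher (log2 0.40, adjusted p = 0.0958). Neither change passed the test, whereas the difference of responses did (log2 0.71 ± 0.21 SE, adjusted p = 0.0313). After tunicamycin it was 1.53-fold higher in lsPERK than in WT liver (log2 0.61, adjusted p = 0.00377). Another probe set gave log2 0.46 for that comparison (adjusted p = 0.00459), and a dimmer probe set fell by 1.90 on the log2 scale in WT liver (adjusted p = 3.52e-05). The difference of responses lost its call when any 1 of 6 arrays was left out, with the highest adjusted p, 0.0768, without lsPERK control replicate 3. That call was also lost on the deposited values, with median centring and with the mean of probe sets. By their brightest probe sets Psmd6, Psmd7, Psmd8, Psmd11 and Psmd12 were not called in any comparison, with WT differences between -0.19 and 0.20. For Psmd11 a dimmer probe set fell in WT liver (log2 -0.43, adjusted p = 0.00143 over probe sets) and in lsPERK liver (log2 -0.31, adjusted p = 0.0316).

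The 2 probe sets of Psmd6, a lid subunit, disagreed on 3 lsPERK arrays. The brightest one read 3228 to 4319 over the 14 arrays. The other read 2581, 2791 and 2526 in WT control, 3227, 3046, 3182 and 2833 in WT tunicamycin, 2752, 2391 and 177 in lsPERK control, and 164, 171, 2638 and 2947 in lsPERK tunicamycin. It thus lay near its level in WT liver on 4 lsPERK arrays and far below it on the other 3, of both treatments, and it was singled out after its values were seen. With that spread its difference between the genotypes under tunicamycin was log2 -2.17 ± 0.97 SE with an adjusted p of 0.109.

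The activators, which open the 20S gate in place of the 19S cap, went different ways. Psme1 encodes PA28-alpha, which interferon-gamma induces and which caps immunoproteasomes. It read 3969, 3289.9 and 3705 in WT control and 2015, 1881, 2174 and 2196 in WT tunicamycin, a 1.77-fold drop without overlap (log2 -0.82 ± 0.12 SE, adjusted p = 6.86e-05). It read 4508, 3503 and 3156 in lsPERK control and 2623, 2908, 2864 and 2460.5 in lsPERK tunicamycin, a 1.36-fold drop without overlap (log2 -0.44 ± 0.12 SE, adjusted p = 0.0212). After tunicamycin it was higher in lsPERK than in WT liver on every array (log2 0.39 ± 0.11 SE, adjusted p = 0.0124), but the difference of responses did not pass the test (log2 0.38, adjusted p = 0.136). On the deposited values the WT difference was -0.37 with an adjusted p of 0.144. Without lsPERK control replicate 1 the lsPERK difference was -0.30 with an adjusted p of 0.0895. Without lsPERK tunicamycin replicate 1 or 4 its adjusted p was 0.0514 and 0.0615.

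Psme3 encodes PA28-gamma, the nuclear activator. It read 363, 515 and 489 in WT control and 669, 756, 576 and 533 in WT tunicamycin, all higher (log2 0.48 ± 0.18 SE, adjusted p = 0.0459). It read 499, 351 and 578 in lsPERK control and 590.4, 568, 577 and 717 in lsPERK tunicamycin, with overlap (log2 0.39, adjusted p = 0.184). The WT call lay near the threshold and was lost when any 1 of 9 arrays was left out, with the highest adjusted p, 0.208, without WT control replicate 1. A second probe set of Psme3 read 321, 536 and 472 in WT control and 625, 616, 670 and 744 in WT tunicamycin, all higher. It read 453, 333 and 426 in lsPERK control and 514, 527, 527 and 567 in lsPERK tunicamycin, also all higher. Psme4 encodes PA200. In WT liver it read 4629.8, 5374 and 4953 in the controls and 4641, 4691, 4101 and 4523 after tunicamycin, and in lsPERK liver 4444, 4755 and 5572 in the controls and 5396, 5343, 5771 and 5785 after tunicamycin. By this probe set it was not called in either response (log2 -0.15, adjusted p = 0.173 in WT, and log2 0.18, adjusted p = 0.18 in lsPERK liver) and was higher in lsPERK than in WT liver under tunicamycin, on every array (log2 0.31, adjusted p = 0.00743). Another probe set of Psme4 fell in WT liver (log2 -0.54, adjusted p = 0.000369 over probe sets), and a second gave log2 -0.32 (adjusted p = 0.0626). For both the difference of responses passed the test (log2 0.69 each, adjusted p = 0.00371 and 0.0193), which it did not for the brightest (log2 0.34, adjusted p = 0.0711). Psmf1, the inhibitor PI31, read 664, 728 and 934 in the WT controls and 667, 642, 711 and 639 after tunicamycin, and in lsPERK liver 909, 654 and 732 in the controls and 689, 673, 722 and 721 after tunicamycin. Its arrays overlapped in each comparison and none was called (log2 -0.21, adjusted p = 0.214 in WT liver). Of its dimmer probe sets 1 rose in WT liver (log2 0.68, adjusted p = 0.0317 over probe sets) and another was lower in lsPERK liver under tunicamycin (log2 -0.33, adjusted p = 0.0452).

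The assembly factors of the core split in WT liver, where Psmg1 fell and Psmg3 rose. Psmg1 works as a heterodimer with Psmg2 on the alpha ring. It read 1655, 1716 and 1803 in WT control and 1153, 1193, 1319 and 1388 in WT tunicamycin, all lower (log2 -0.45 ± 0.09 SE, adjusted p = 0.00105), a direction that turned on the deposited values (0.07). In lsPERK liver it read 1756, 1530.1 and 1540.3 and 1395, 1366, 1289.8 and 1412, also all lower but without passing the test (log2 -0.23, adjusted p = 0.106). Psmg2 read 989.6, 1540.0 and 1338 in WT control and 1656, 1768, 1596 and 1799.9 in WT tunicamycin, all higher, just short of the threshold (log2 0.43, adjusted p = 0.0511). Its other probe set passed (log2 0.63, adjusted p = 0.00485). In lsPERK liver Psmg2 read 1599.9, 945 and 1278 and 1365, 1308, 1543 and 1394, with overlap.

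Psmg3 and Psmg4 form the other core chaperone. Psmg3 read 658, 833 and 771 in WT control and 1162, 868, 1183 and 857 in WT tunicamycin, all higher (log2 0.42, adjusted p = 0.0307). In lsPERK liver it read 736, 558 and 731 and 655, 741, 691 and 733, with overlap (log2 0.07, adjusted p = 0.809), and it was 1.43-fold lower in lsPERK than in WT liver under tunicamycin (log2 -0.51, adjusted p = 0.0096). The WT call was lost when any 1 of 4 arrays was left out, with the highest adjusted p, 0.132, without WT control replicate 1. Psmg4 read 528, 379.8 and 447 in WT control and 357, 389, 334 and 395 in WT tunicamycin, with overlap (log2 -0.28, adjusted p = 0.155). In lsPERK liver it read 619.9, 425 and 426 and 442, 401, 361 and 451, also with overlap, and it was not called.

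**Figure D5:**
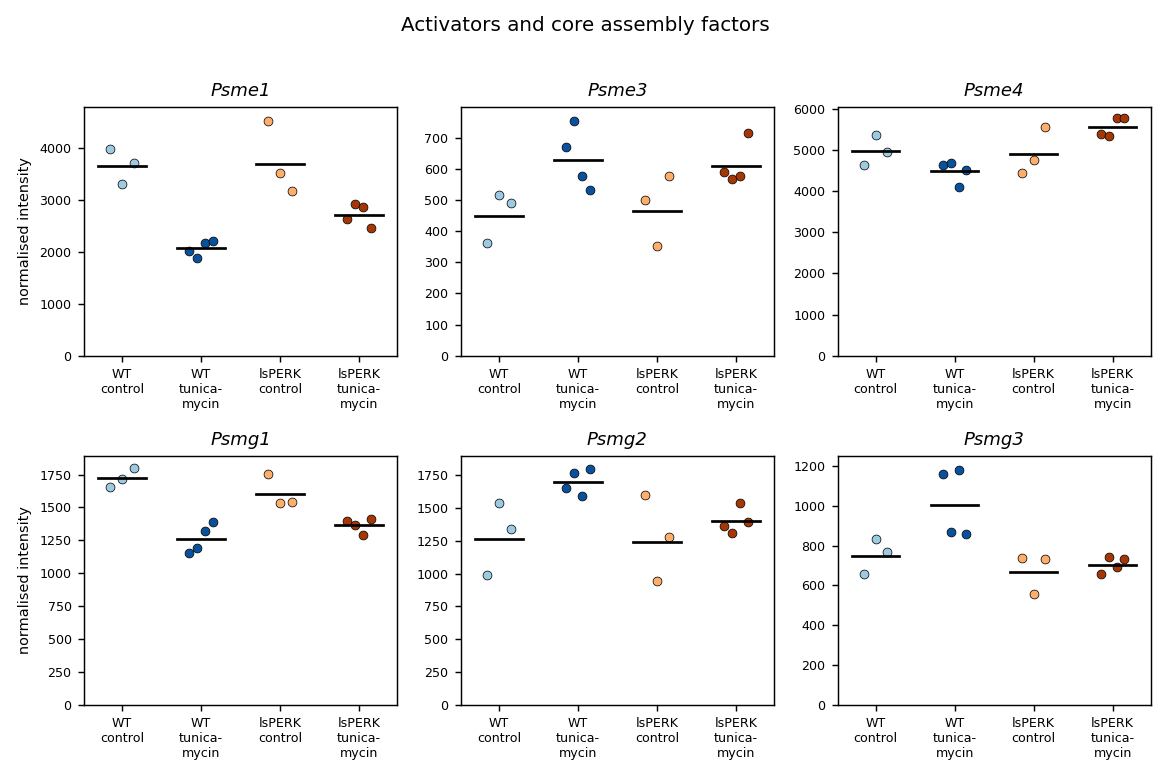
Normalised intensity of the activators (top row) and of 3 core assembly factors (bottom row) on each array, with the group's geometric mean as a bar. Psme1 was lower on tunicamycin than on control arrays in both genotypes; in WT liver Psmg1 was lower and Psmg3 higher on tunicamycin arrays, and for Psmg1 this direction turned on the deposited values.

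Of the 3 chaperones of the 19S base, Psmd10 (gankyrin) was called in WT liver. It read 524, 579.9 and 569.8 in WT control and 367, 401, 445 and 449.7 in WT tunicamycin, all lower (log2 -0.43, adjusted p = 0.0279), with a difference of 0.14 on the deposited values. It read 610.1, 396 and 491 in lsPERK control and 489, 550.3, 622 and 637 in lsPERK tunicamycin, with overlap (log2 0.22, adjusted p = 0.371). The responses differed (log2 0.65 ± 0.21 SE, adjusted p = 0.0426), a call that was lost when any 1 of 10 arrays was left out, with the highest adjusted p, 0.107, without lsPERK control replicate 2. The WT call was lost when any 1 of 4 arrays was left out, the highest adjusted p being 0.078 without WT control replicate 2. Neither call was made on the deposited values or with median centring. Under tunicamycin Psmd9 was lower in lsPERK liver, with overlapping arrays (log2 -0.34, adjusted p = 0.0223), and the call was lost when any 1 of 4 arrays was left out, the highest adjusted p being 0.0702 without lsPERK tunicamycin replicate 3. Psmd5 was not called in any comparison.

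Of the members that are no proteasome part, Psme3ip1, which binds the activator Psme3, changed most. It read 809.6, 743 and 796 in WT control and 1411, 1599, 1518 and 1752 in WT tunicamycin, all higher (log2 1.000 ± 0.10 SE, adjusted p = 3.90e-06). It read 747, 666 and 792 in lsPERK control and 831, 965, 979 and 979 in lsPERK tunicamycin, again all higher (log2 0.35 ± 0.10 SE, adjusted p = 0.0339). The response was smaller in lsPERK liver (log2 -0.65 ± 0.15 SE, adjusted p = 0.00778). The lsPERK call was lost when any 1 of 5 arrays was left out, with the highest adjusted p, 0.15, without lsPERK control replicate 2, with the replicate block (log2 0.32, adjusted p = 0.0814) and with the 3′ to 5′ signal ratio as a covariate (log2 0.33, adjusted p = 0.0618). Psmc3ip, a recombination factor, was above the pooled median on 7 of 14 arrays, read between 15.6 and 285 and was not called.

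Between the genotypes, no member was called among the DMSO controls, where none of 12085 genes was (0%). At an unadjusted p under 0.05, 3 members and 512 genes passed there. No member had all lsPERK control arrays above all WT control arrays (2.8% of all genes did), and 5 had them all below (4.59% of all genes). These 5 were Psma2, Psmb3, Psmb6, Psmd1 and Psmd8.

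Under tunicamycin 8 members were called higher and 6 lower in lsPERK than in WT liver, against 18.5% and 16.8% of all genes (35.3% together). The higher ones were core subunits (Psma4, Psmb1, Psmb6), cap subunits (Psmc3, Psmd13), activators (Psme1, Psme4) and Psmd10. The lower ones were Psmc2, Psmc6, Psma5, Psmg3, Psmd9 and Psme3ip1. This comparison shares its arrays with the responses of both genotypes, so that the counts are not independent of each other. Psma5, Psmb6, Psmc3, Psmd9 and Psmd10 lost the call without at least 1 array, with highest adjusted p-values of 0.0983, 0.109 and 0.0592 without lsPERK tunicamycin replicate 2, 0.0702 without lsPERK tunicamycin replicate 3 and 0.0517 without WT tunicamycin replicate 1. All lsPERK tunicamycin arrays lay above all WT tunicamycin arrays for 13 members and below them for 6, where 18.6% and 17.7% of all genes did so. With values as deposited none of the 8 higher calls was made, and with median centring 1 member was called higher.

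The difference of responses, which uses the same arrays again, was called for 6 members, 4 with a higher and 2 with a lower response in lsPERK liver, against 19.9% of all genes (10.2% higher and 9.67% lower). They were Psmb1, Psmb3, Psmd10, Psmd13, Psmc2 and Psme3ip1, described above. Psmc2 and Psme3ip1 kept this call whichever array was left out, and the other 4 lost it in at least 1 such fit. None of these 4 was called higher on the deposited values or with median centring, and Psmc2 lost its call with the mean of probe sets. With WT control replicate 1 or lsPERK control replicate 2 left out, none of the 4 higher calls remained.

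Genes that deliver substrates to the proteasome rose in WT liver. Of 11 ubiquitin shuttles and p97 segregase factors tested of 12 listed, 10 were called higher and none lower in WT liver, at a median of log2 0.61, where 20.7% of all genes were higher. In lsPERK liver 1 was called higher and none lower, at a median of log2 0.14, which is near the 8.42% of all genes. Under tunicamycin 7 were called lower and none higher in lsPERK than in WT liver, where 16.8% of all genes were lower. The difference of responses was called lower for 4, where 9.67% of all genes were. Vcp, the p97 ATPase that extracts proteins from the ER membrane, rose in WT liver (log2 0.55, adjusted p = 0.000433), and its lsPERK difference did not pass the test (log2 0.14, adjusted p = 0.386). Its cofactors Ufd1 (log2 0.87, adjusted p = 2.84e-05) and Nploc4 (log2 0.78, adjusted p = 0.000391) rose as well. Zfand5, an activator of the 26S proteasome, rose in WT liver (log2 0.74, adjusted p = 7.53e-05) and responded less in lsPERK liver (log2 -0.90, adjusted p = 0.00142). Nsfl1c, another p97 cofactor, was the one not called (log2 -0.10, adjusted p = 0.653).

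Of 7 proteasome-bound partners tested of 9 listed, 1 was called higher and 4 lower in WT liver (20.7% and 26% of all genes), and 1 higher and none lower in lsPERK liver (8.42% and 7.27%). Pomp, the maturation factor of the core, fell in WT liver (log2 -0.64, adjusted p = 0.0027) and responded differently in lsPERK liver (log2 0.83, adjusted p = 0.0138). Its levels were 6525, 5814 and 6530 in WT control and 3737, 3575, 4090.1 and 4795 in WT tunicamycin, without overlap. In lsPERK liver they were 6536, 4203 and 6429 in the controls and 5841, 5780, 7062 and 6937 after tunicamycin, with overlap. The control array numbered 2 stood low there. How the Pomp results depend on single arrays or on the scaling was not examined. Sem1, a small lid subunit, fell in WT liver too (log2 -0.39, adjusted p = 0.000631), and Txnl1, a thioredoxin bound to the cap, rose in both genotypes (log2 0.54, adjusted p = 7.35e-05, and log2 0.36, adjusted p = 0.007).

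Of 4 regulators of proteasome genes and localisation tested of 5 listed, 2 were called higher in WT and none in lsPERK liver, where 20.7% and 8.42% of all genes were. Akirin2, which imports proteasomes into the nucleus, rose in WT liver (log2 0.77, adjusted p = 2.00e-05), did not pass the test in lsPERK liver (log2 -0.01, adjusted p = 0.953), and the responses differed (log2 -0.79, adjusted p = 0.00164). Nfe2l2 (NRF2) rose in WT liver (log2 0.40, adjusted p = 0.0192). Nfe2l1 (NRF1), the activator of proteasome subunit genes when the proteasome is inhibited, did not pass the test in WT liver (log2 0.23, adjusted p = 0.242). Of 6 listed genes for ubiquitin and its activating enzymes 1 was tested, the E1 enzyme Uba6, which rose in both genotypes (log2 0.66, adjusted p = 0.00122, and log2 0.87, adjusted p = 0.000628).

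RefSeq promoter windows (GRCm38.p6, 250 bases before to 50 after the start) were found for 41 of the 49 members, and 8 had none in the table used: Psma8, Psmb1, Psmb2, Psmb7, Psmc3, Psmd3, Psmd7 and Psmg2. Each motif was searched on both strands. The core of the antioxidant response element, TGACNNNGC, which NRF1 and NRF2 bind, matched in 6 of 41 members (14.6%) and in 14.0% of the 27025 genes with a window. The interferon-stimulated core, 2 copies of GAAA with 2 bases between them, matched in 5 members and 3.99% of genes, and the interferon-gamma activated site TTCNNNGAA in 3 members and 9.55%. The ATF4 composite element TGATGNAA matched in 1 member, Psmd13, and in 4.51% of genes. The CCAAT box matched in 16 members (39.0%) and 41.1% of genes, and the ER stress response element (ERSE), which contains a CCAAT box, in no member and 0.137% of genes. A match is a description of the letters and not evidence that a factor binds.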

How the data were processed

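Liver RNA of 14 samples was hybridised to Affymetrix mouse arrays, 1 array per sample. The authors deposited linear intensity values per probe set, made with GCOS and MAS5 per the submitters' processing notes. The sources used here give neither versions nor the scaling target. Groups came from the sample titles. The 64 control probe sets of 45101 were removed, values were put on the log2 scale and quantile normalised, and probe sets with at least 3 arrays above the pooled median (log2 5.37, an intensity of 41.5) were kept. Each gene was read by its brightest probe set naming that gene alone: 34945 probe sets named 1 gene, 932 several and 9160 none. A linear model of the group means (limma 3.58.1, lmFit and eBayes with trend, run under R 4.3.3) left 10 residual degrees of freedom. Calls were made at a Benjamini-Hochberg adjusted p under 0.05 (two-sided) over all 12085 genes. The test was checked on simulated data. The deposited values carry no read depth, so the number of arrays limits the precision. Levels of different genes' probe sets were not compared.

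The members and gene lists were chosen with earlier results of these data known. Values of single arrays are given for the members with the largest called differences in each comparison, the catalytic pairs, the activators and inhibitor and the core assembly factors, and for some further members chosen after their values were seen. Alternatives were other scalings, filters, probe set rules, covariates and array weights, and each array left out. Leaving out the control arrays numbered 1, and keeping the arrays of low Xist signal, were chosen after seeing the data. Same-numbered lsPERK control and tunicamycin arrays deviated together (r = 0.273, 0.242 and 0.349). Within WT liver and between the genotypes not every same-numbered pair did. The pairs that deviated together were those of like Xist signal, both high or both low, and pairs of unlike signal had negative r. In lsPERK liver the Xist signal matched by replicate number, so there replicate number and Xist signal cannot be told apart. The fit with the replicate number as a block is given beside the lsPERK calls it changed. The labels give no pairing, and the cause of the shared deviation was not tested. Sequences are RefSeq promoters of GRCm38.p6.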

Additional observations from a re-analysis of the deposited data

Results flagged for a closer look

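Within the groups of 4 arrays, 1 array stood apart from the other 3 for 9 of 96 gene and group combinations tested, where chance gives about 1 in 20. WT tunicamycin replicate 2 stood high for Psma6 (6386, others 4820 to 4968) and low for Psmb3 (2174, others 2755 to 2877) and Psmd2 (2446, others 2701 to 2733). WT tunicamycin replicate 4 stood high for Psmb4 (7602, others 6918 to 6959). In the lsPERK tunicamycin group, replicate 1 stood low for Psma4 (4606), Psma8 (35.4) and Psme3ip1 (831), replicate 2 stood low for Psmb8 (613), and replicate 4 stood high for Psme3 (717).

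The response to tunicamycin differed between the genotypes by the test of the difference itself for 6 members. The lsPERK response minus the WT response was log2 0.42 for Psmb1, 0.52 for Psmb3, 0.65 for Psmd10 and 0.71 for Psmd13, and -0.65 for both Psmc2 and Psme3ip1.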

How the results depend on the processing

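On the deposited values 13 members were called higher and 1 lower in WT liver, 0 and 1 in lsPERK liver, 0 higher between the genotypes under tunicamycin, and 0 and 6 in the difference of responses. Of the WT differences that were called lower, 12 turned positive there: Psma2 0.20, Psma4 0.0248, Psma7 0.0775, Psmb1 0.11, Psmb6 0.11, Psmc1 0.0942, Psmc3 0.11, Psmd1 0.19, Psmd10 0.14, Psmd3 0.28, Psmd4 0.10 and Psmg1 0.0710. The shift of all genes between scalings is given above. Median centring gave 5 lower in WT liver, 3 higher and 1 lower in lsPERK liver, 1 higher under tunicamycin and 0 higher in the difference of responses. A minimum fold of 1.2 gave 2 higher and 5 lower in WT liver, 0 and 1 in lsPERK liver, 0 and 2 under tunicamycin, and 0 and 1 in the difference of responses. The 3′ to 5′ signal ratio as a covariate gave 3 higher in WT and 0 higher in lsPERK liver, the Xist signal as a covariate 3 higher in lsPERK liver, and array weights 2 higher in lsPERK liver. Arrays of low Xist signal gave 3 higher in WT liver, 0 lower in lsPERK liver, and 2 higher and 0 lower in the difference of responses. Without the control arrays numbered 1, 2 were lower in lsPERK liver. No filter, no trend and the mean of probe sets each gave 2 higher in the difference of responses. Beyond the scalings, the fewer arrays and the stricter threshold, the cause was not tested.

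With 1 array left out, the WT counts ran from 3 to 7 higher (3 without WT control replicate 1) and from 11 to 18 lower (11 without WT control replicate 3). The lsPERK counts ran from 0 to 3 higher and 2 to 5 lower, those under tunicamycin from 5 to 9 higher (5 without lsPERK tunicamycin replicate 4) and 4 to 7 lower, and those of the difference of responses from 0 to 5 higher and 2 to 3 lower. Of the calls, 14 of 23 in WT liver, 2 of 5 in lsPERK liver, 9 of 14 under tunicamycin and 2 of 6 in the difference of responses were made whichever array was left out. No member was called between the genotypes among controls under any alternative run. Of 19 pairs of arrays with the same replicate number, 13 correlated above 0.1 in their deviations from the group means. Over all pairs r ran from -0.366 to 0.419. These 13 joined arrays of like Xist signal, both high or both low, and the others, of unlike signal, had negative r. Every pair correlated above 0.1 only between lsPERK control and lsPERK tunicamycin, where the Xist signal matched by replicate number. With the replicate block, 4 members were higher and 17 lower in WT liver, 0 and 3 in lsPERK liver, 8 and 5 under tunicamycin, and 3 and 3 in the difference of responses.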
